A study of Mus musculus with 11 samples.

Results

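Amino acid transporters of the proximal tubule were examined in the S3 segment, the straight end of that tubule, in mice without Tamm-Horsfall protein. The 10 genes were chosen by symbol, with earlier results of these arrays known, out of 22180 genes that had a probe set with a single gene symbol. They were the carriers Slc6a18, Slc6a19, Slc6a20a, Slc6a20b, Slc7a7, Slc7a8, Slc7a9, Slc7a12 and Slc7a13 and the heavy subunit Slc3a1. Where a gene has several probe sets, the rule keeps the one with the highest mean over all arrays, but each of the 10 had 1, so no signal value took part in that choice and no other probe set of these genes was at hand. The groups were 5 arrays from THP -/- mice, knockouts of the gene for Tamm-Horsfall protein (Umod), and 6 arrays from WT mice, all of strain 129/SvEv. Both groups were run in 2 batches, with 3 THP -/- and 5 WT arrays in batch 1 and 2 THP -/- arrays and 1 WT array in batch 2. Age and sex are not given in the sources used here, and since nothing in the labels ties an array to its own mouse, the tests cover the variation among these arrays, which may be technical. All values are log2 signals, and levels of different genes are not set against each other because each probe set has its own brightness.

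The proximal tubule takes back nearly all amino acids that the glomerulus filters. Sodium-coupled carriers of the Slc6 family and exchangers of the Slc7 family bring them in across the brush border, and other Slc7 exchangers pass them on to the blood side. Several Slc7 carriers reach the membrane only when bound to a heavy subunit, Slc3a1 at the brush border or Slc3a2 at the blood side. In mouse kidney Slc6a19, Slc7a9, Slc7a7 and Slc7a8 are known mainly from the early tubule and are called S1-type here, whereas Slc6a18, Slc7a12, Slc7a13 and Slc3a1 are known mainly from the late tubule and are called S3-type. Slc6a20a, a carrier of proline and other imino acids, and its close relative Slc6a20b were put in neither class.

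The arrays held signal of S3 markers together with signal of other segments. Array medians lay between 3.85 and 4.01, and correlations between arrays over all probe sets ran from 0.901 to 0.955. The mean of the 12 measured S3 markers ran from 8.42 to 9.28 in THP -/- arrays and from 7.73 to 8.93 in WT arrays. The mean of the 12 measured S1 and S2 markers ran from 6.08 to 7.37 in THP -/- arrays and from 6.48 to 7.61 in WT arrays. Umod itself had a log2 change of -1.52, and its groups met at 5.27, the reading of THP -/- replicate 5 and also of WT replicates 2 and 5. THP -/- replicate 4 stood apart in markers of later segments: the mean of its 7 measured thick ascending limb markers other than Umod was 7.47, against 5.63 to 6.2 in the other THP -/- arrays and 5.28 to 6.01 in WT arrays.

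Over all 41345 probe sets, limma with batch as a term called 0 past an adjusted p of 0.05 (0%) and 2546 (6.16%) at an unadjusted p under 0.05, with a lowest adjusted p of 0.0813. Of the 10 transporter genes 0 passed the adjusted threshold and 1, Slc6a20b, had an unadjusted p under 0.05. Slc6a20b was also the only one whose groups did not overlap, which held for 247 of all probe sets (0.597%) in either direction; in 153 (0.37%) every THP -/- array was above every WT array, as for Slc6a20b. Fitted changes were positive for 6 and negative for 4 of the 10, with a median of 0.21, beside a median of 0.00 and a positive share of 50.4% over all probe sets. In bulk tubule RNA, fewer cells of a type and less RNA per cell cannot be told apart.

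**Figure D1:**
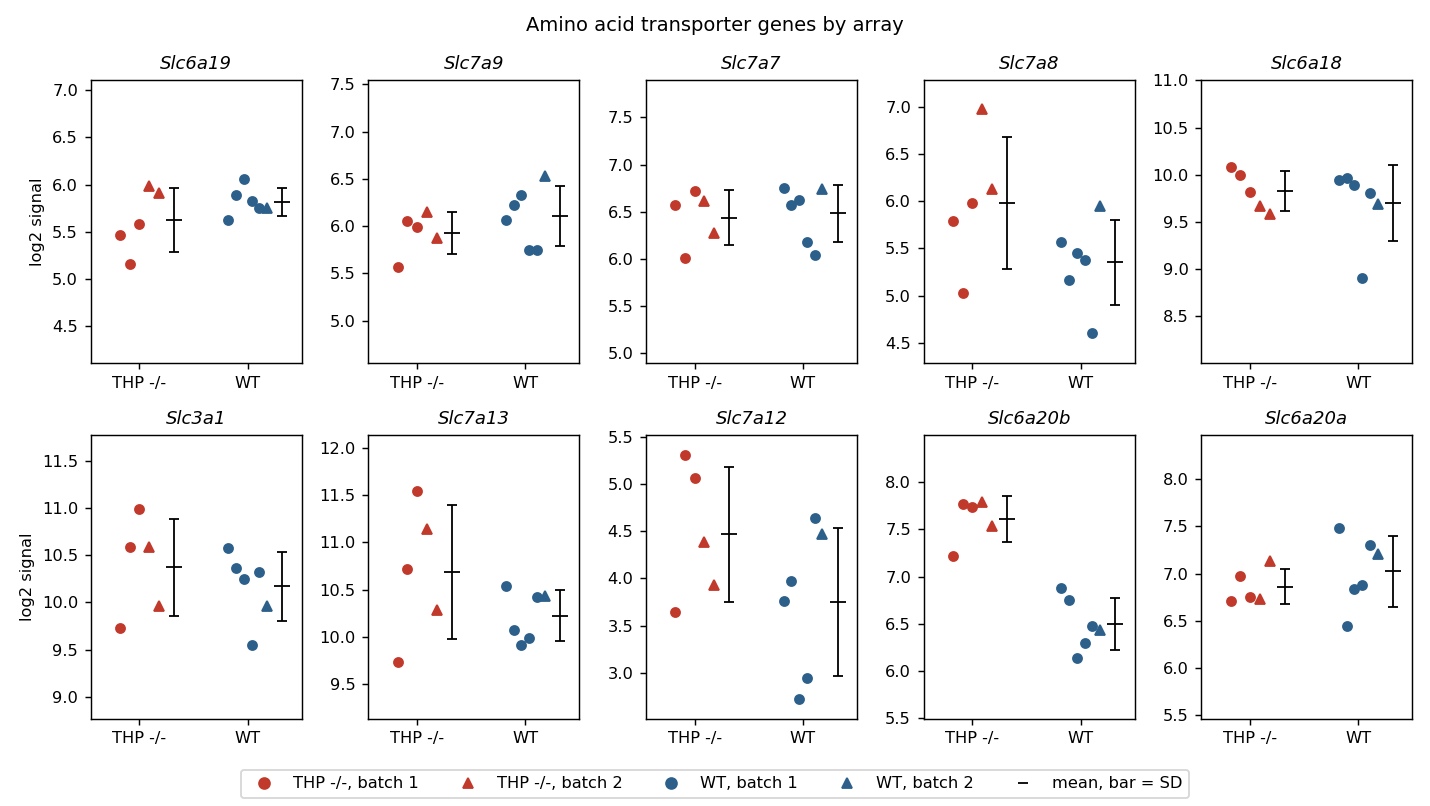
Log2 signal (vertical axes, each spanning 3 log2 units) of the 10 genes in every THP -/- array (red) and WT array (blue), circles for batch 1 and triangles for batch 2, with the group mean and SD in black. The 5 THP -/- arrays of Slc6a20b lie between 7.22 and 7.79, above the highest WT array at 6.88, while the groups of the other genes overlap.

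Slc6a20b and the imino acid carrier Slc6a20a (Entrez 22599 and 102680) are next to each other in RefSeq's order of protein-coding genes on chromosome 9. Their fitted changes between genotypes had opposite signs. Their promoters are shown because neighbouring genes with different changes invite a look at what lies before each start. Each line gives the 250 bases before the start of transcription, from RefSeq on GRCm38.p6, both on the minus strand, with Slc6a20b at chr9:123632539-123632788 and Slc6a20a at chr9:123678833-123679082. Capitals mark matches to GTTAAT on either strand, a part of the site bound by HNF1 factors, which are known regulators of proximal tubule genes.
Slc6a20b: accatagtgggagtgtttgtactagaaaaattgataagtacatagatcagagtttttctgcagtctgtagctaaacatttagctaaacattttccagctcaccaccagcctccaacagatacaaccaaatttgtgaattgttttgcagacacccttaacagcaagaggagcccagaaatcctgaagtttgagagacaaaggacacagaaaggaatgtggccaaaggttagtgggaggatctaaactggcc
Slc6a20a: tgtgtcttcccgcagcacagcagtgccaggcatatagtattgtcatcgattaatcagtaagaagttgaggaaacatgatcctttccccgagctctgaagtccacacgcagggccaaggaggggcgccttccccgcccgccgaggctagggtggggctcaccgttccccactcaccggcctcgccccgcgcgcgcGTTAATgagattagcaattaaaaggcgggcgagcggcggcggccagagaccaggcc
The Slc6a20a stretch held 1 match, starting 56 bases before the start, and the Slc6a20b stretch held none. A promoter of Slc7a7, not the first listed for that gene, also held a match, 86 bases before its start. The same letters occur in 6.52% of 27025 gene promoters of that length. G and C made up 41.6% of the Slc6a20b stretch and 61.2% of the Slc6a20a stretch. In a global alignment the pair shared 46.3% of positions, within the range of 45.1% to 52.5% found between the other 20 pairs of the 7 genes with a promoter. CAAAGTCCA, part of a site of the HNF4 factors (either strand), was in neither of them but was in the promoter of Slc3a1, 39 bases before its start, and in 0.381% of all promoters.

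Slc6a20b read 7.22, 7.77, 7.74, 7.79 and 7.54 in THP -/- replicates 1 to 5, against a lowest, median and highest WT array of 6.14, 6.455 and 6.88. All THP -/- arrays were above all WT arrays, with replicates 2, 3 and 4 the highest. The means were 7.61 ± 0.241 (SD, n = 5) in THP -/- and 6.50 ± 0.276 (SD, n = 6) in WT arrays. Adjusted for batch, THP -/- minus WT came to 1.11 ± 0.17 (SE) on the log2 scale (95% interval 0.73 to 1.49), a fold of 2.16, and it was 1.07 within batch 1 and 1.24 within batch 2. Its limma adjusted p was 0.271. This gene was already known for its small p in these same arrays, so its values are a description and support nothing further.

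Slc6a20a read 6.71, 6.98, 6.75, 6.73 and 7.13 in THP -/- arrays, against 6.45, 7.045 and 7.48 for the lowest, median and highest WT array. The THP -/- values lay inside the WT range, and the fitted change was -0.20 ± 0.19 (SE; 95% interval -0.62 to 0.21). Within each array the signal of Slc6a20b minus that of Slc6a20a was 0.51, 0.79, 0.99, 1.06 and 0.41 in THP -/- replicates 1 to 5, whereas WT arrays ran from -0.82 to 0.30. The offset between the 2 probe sets has no meaning of its own, but it shifted by 1.31 on the log2 scale between genotypes, 1.24 within batch 1 and 1.51 within batch 2. The groups did not overlap in this difference, with WT replicate 2 the nearest to the THP -/- arrays. As the groups of Slc6a20b did not overlap by themselves, this is no separate result. The 2 genes are close relatives, so a share of either signal may come from the other's transcript.

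**Figure D2:**
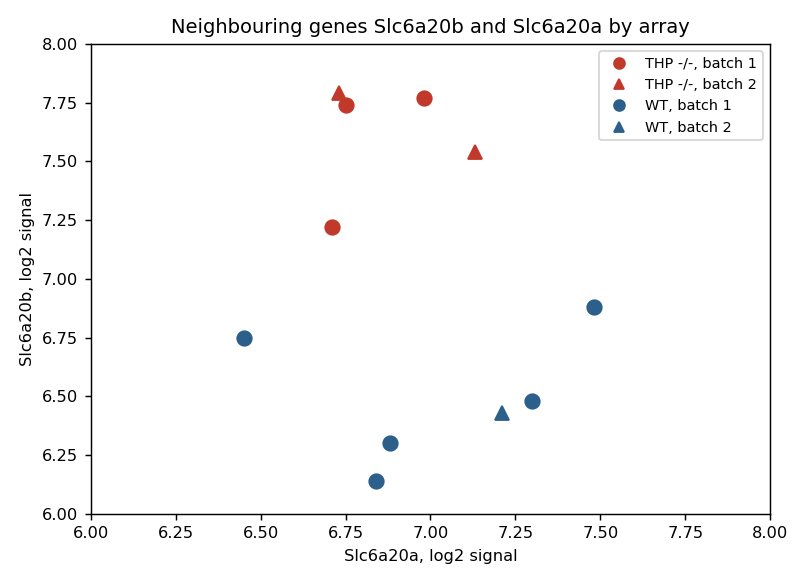
Log2 signal of Slc6a20b (vertical) against that of Slc6a20a (horizontal) in each array, red for THP -/- and blue for WT, circles for batch 1 and triangles for batch 2. The genotypes separate along the vertical axis, at 7.22 and above in THP -/- and at 6.88 and below in WT arrays, and overlap along the horizontal axis.

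Among brush border carriers of the early tubule, both had negative fitted changes that did not pass the test. Slc6a19 (Entrez 74338), the main neutral amino acid carrier of the brush border, whose loss causes Hartnup disorder in humans, read 5.47, 5.16, 5.58, 5.99 and 5.91 in THP -/- arrays and 5.62, 5.79 and 6.06 in the lowest, median and highest WT array. The 3 THP -/- arrays of batch 1 were below every WT array, and the 2 of batch 2 were inside the WT range. Its log2 change was -0.26 ± 0.15 (SE, limma adjusted p = 0.826), at -0.43 within batch 1 and 0.20 within batch 2. Slc7a9 (Entrez 30962), the light subunit of the cystine carrier that is faulty in cystinuria, read 5.57, 6.05, 5.99, 6.15 and 5.87 in THP -/- arrays, against 5.75, 6.145 and 6.53 in WT arrays. Only THP -/- replicate 1 was outside the WT range, below it. Its change was -0.25 ± 0.16 (SE; 95% interval -0.61 to 0.11) and was negative within both batches (-0.15 and -0.52).

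Of the blood-side exchangers, both of which pair with Slc3a2, Slc7a7 had a fitted change near 0 and Slc7a8 a positive one; neither passed the test, and the difference between them was not tested. Slc7a7 (Entrez 20540), which exports cationic amino acids and is mutated in lysinuric protein intolerance, had the narrowest spread of the 10 genes, 0.74 log2 units over all arrays. It averaged 6.44 ± 0.289 (SD, n = 5) in THP -/- and 6.49 ± 0.302 (SD, n = 6) in WT arrays, a log2 change of -0.08 ± 0.19 (SE) that turned to 0.05 without THP -/- replicate 2. Slc7a8 (Entrez 50934), an exchanger of neutral amino acids, spread over 2.37 log2 units and read 5.79, 5.03, 5.98, 6.97 and 6.13 in THP -/- arrays, against 4.6, 5.415 and 5.95 in WT arrays. It was above the WT range in 3 THP -/- arrays, by most in replicate 4. Replicates 4 and 5 were of batch 2, as was the highest WT array. Replicate 3, at 5.98, all but met that WT array at 5.95. The log2 change of Slc7a8 was 0.43 ± 0.25 (SE; 95% interval -0.11 to 0.97), with a limma adjusted p of 0.826. Replicate 4 is also the array with the highest markers of thick ascending limb, and the change was 0.33 without it. Leaving out other arrays gave from 0.31, without THP -/- replicate 3, to 0.64, without THP -/- replicate 2, and 0.32 without WT replicate 5. The part of other segments in the Slc7a8 signal was not tested further. Slc3a2 itself had a log2 change of -0.22 ± 0.16 (SE).

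The 4 S3-type genes all had positive fitted changes, and 0 of them passed the test. Slc6a18 (Entrez 22598), a sodium-coupled carrier that in mouse takes up glycine and other small neutral amino acids, read 10.08, 10, 9.82, 9.67 and 9.58 in THP -/- arrays, against 8.91, 9.85 and 9.97 in WT arrays. WT replicate 4 was far below all others, and without it the log2 change of 0.18 ± 0.20 (SE) was 0.03. Slc6a18 and Slc6a19 are also neighbours in RefSeq's gene order, on chromosome 13, and their fitted changes had opposite signs.

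Slc3a1 (Entrez 20532) anchors the cystine carriers in the brush border and is the other cystinuria gene. It read 9.73, 10.59, 10.99, 10.59 and 9.96 in THP -/- arrays, against 9.55, 10.285 and 10.58 in WT arrays. Slc7a13 (Entrez 74087), which in mouse binds Slc3a1 in S3 cells and carries cystine, aspartate and glutamate, read 9.73, 10.72, 11.54, 11.14 and 10.29 in THP -/- arrays, against 9.91, 10.245 and 10.54 in WT arrays. For both genes THP -/- arrays 2, 3 and 4 were above every WT array, whereas replicates 1 and 5 were not. For Slc3a1 replicates 2 and 4, at 10.59, all but met the highest WT array at 10.58, and only replicate 3 stood clear. The SD of Slc7a13 was 0.708 in THP -/- and 0.267 in WT arrays. Log2 changes were 0.25 ± 0.26 (SE) for Slc3a1 and 0.43 ± 0.30 (SE) for Slc7a13, with limma adjusted p of 0.896 and 0.856. They were 0.06 and 0.12 without THP -/- replicate 3, and 0.49 and 0.73 without THP -/- replicate 1.

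Slc7a12 (Entrez 140918), a carrier of small neutral amino acids, was the most variable of the 10, with 2.59 log2 units between its extreme arrays. It read 3.64, 5.31, 5.06, 4.39 and 3.93 in THP -/- arrays, against 2.72, 3.865 and 4.64 in WT arrays. THP -/- replicates 2 and 3 were above every WT array and the others were within the WT range. The values straddled the array medians, and without a measure of background no fold can be read from them. The log2 change was 0.70 ± 0.44 (SE, limma adjusted p = 0.840), at 1.06 within batch 1 and -0.31 within batch 2. Because Slc7a12 differs between male and female mouse kidneys, sex chromosome genes were read beside it: Xist ran from 2.35 to 2.96 in THP -/- and from 2.39 to 2.88 in WT arrays, and Eif2s3y from 4.84 to 5.18 in THP -/- and from 4.5 to 5.21 in WT arrays. Both genes overlapped between genotypes, but Eif2s3y only through WT replicates 3 and 6, at 5.21 and 5.07. Its other WT arrays, up to 4.67, were below every THP -/- array. Kdm5d and Uty, also measured, overlapped too. Whether the mice differed in sex was not tested.

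**Figure D3:**
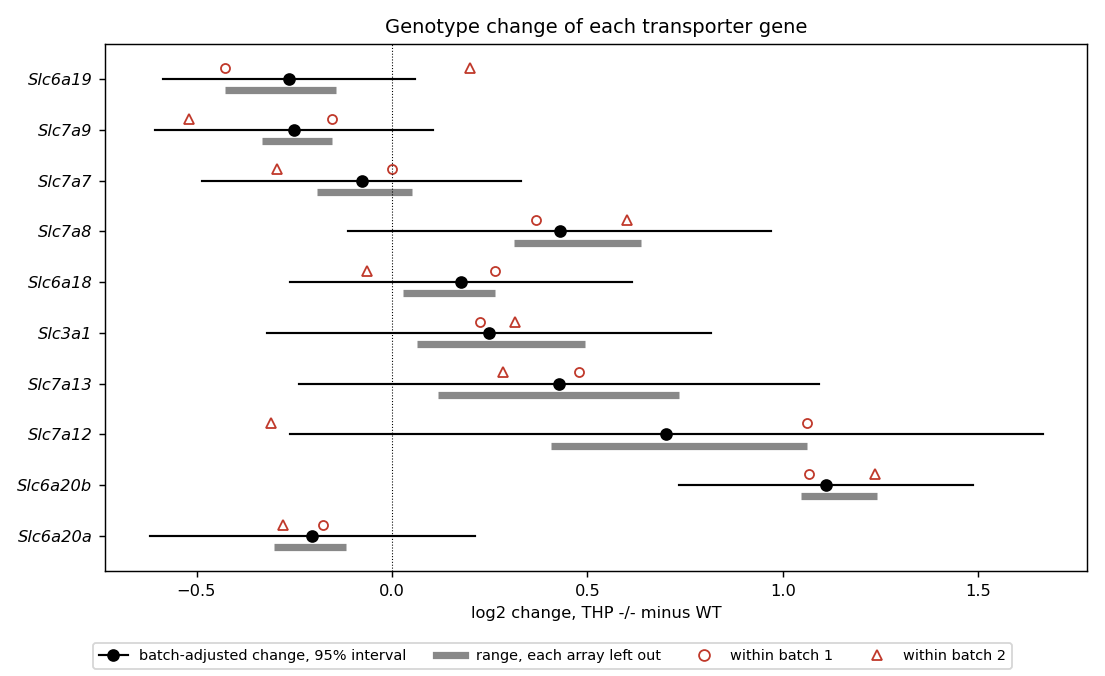
Batch-adjusted log2 change, THP -/- minus WT (horizontal), of each gene, with its 95% interval (black), the range when each array is left out (grey bar) and the differences within batch 1 (open circle) and batch 2 (open triangle). The interval of Slc6a20b runs from 0.73 to 1.49, and the intervals of the other 9 genes include 0.

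Set against each other, the S3-type and S1-type carriers shifted with the segment markers of each array. The mean of the S3-type genes minus the mean of the S1-type genes was 2.44, 3.59, 3.29, 2.52 and 2.39 in THP -/- replicates 1 to 5, against 2.70, 2.63, 2.08, 2.06, 3.26 and 2.40 in WT replicates 1 to 6. THP -/- replicates 2 and 3 and WT replicate 5 were high, and WT replicates 3 and 4 were low. The group means were 2.85 ± 0.553 (SD, n = 5) in THP -/- and 2.52 ± 0.451 (SD, n = 6) in WT arrays, so their difference was within the spread between arrays. The batch-adjusted difference was 0.43, made up of 0.39 for the S3-type mean and -0.04 for the S1-type mean, and it was 0.56 within batch 1 and 0.06 within batch 2. With Slc7a12 left out it was 0.32. No p is given for a score over chosen genes.

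The segment markers, which hold none of the 10 genes, moved beside it. All 12 measured S3 markers had positive fitted changes and all 12 measured S1 and S2 markers had negative ones, with medians of 0.33 and -0.32, and 0 of either list passed the test. At an unadjusted p under 0.05, which 6.16% of all probe sets had, there were 2 S3 markers, the organic anion carrier Slc22a7 (1.11) and the phospholipid flippase Atp11a (0.45). In the S1 and S2 list there were 3, the organic anion carrier Slc22a8 (-1.78), the lactate carrier Slc5a12 (-0.63) and the glucose-6-phosphatase G6pc (-1.01). The S3 marker mean minus the S1 and S2 marker mean was 1.91 ± 0.698 (SD, n = 5) in THP -/- and 1.16 ± 0.754 (SD, n = 6) in WT arrays. This marker score differed between genotypes by 1.1 within batch 1 and by 0.31 within batch 2. Within batch 1 all 12 S3 markers were higher and all 12 S1 and S2 markers lower in THP -/- arrays, whereas within batch 2, which has 1 WT array, 4 of the S3 markers were lower and 5 of the S1 and S2 markers higher. Across the 11 arrays this marker score and the carrier score had a Pearson r of 0.932 and a Spearman rho of 0.90. The r was 0.897 without WT replicate 4 and THP -/- replicate 2, and 0.94 over the 8 arrays of batch 1; batch 2 held too few arrays. With the marker score as a covariate, chosen after seeing the data, the carrier score difference was -0.13, and the changes were 0.03 for Slc7a13, -0.05 for Slc6a18, -0.13 for Slc3a1 and -0.17 for Slc7a12. The S1-type genes were at 0.66 for Slc7a8, -0.03 for Slc7a7, -0.11 for Slc6a19 and -0.33 for Slc7a9. In the same fit Slc6a20b was at 0.92 and Slc6a20a at -0.41. The marker score itself differed by 0.89 between genotypes, adjusted for batch, so segment mix and genotype cannot be told apart by these values.

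**Figure D4:**
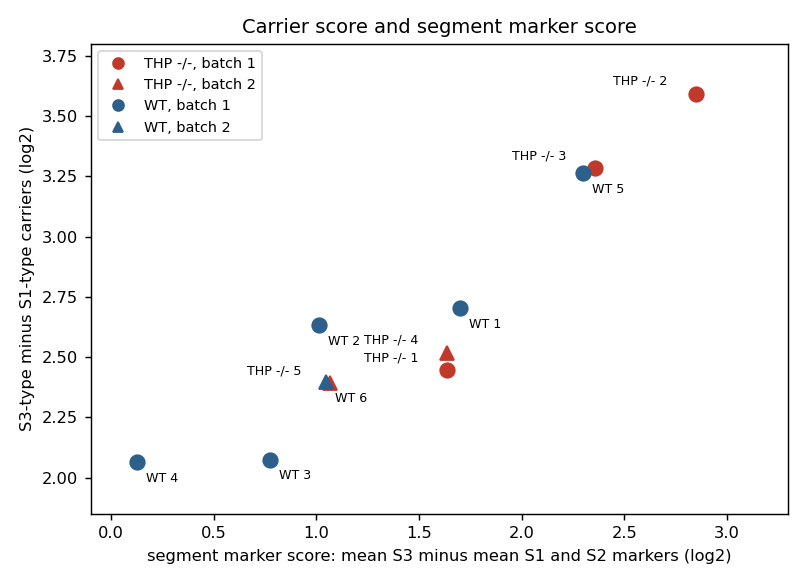
Mean log2 signal of the S3-type minus the S1-type carriers (vertical) against the mean of S3 markers minus that of S1 and S2 markers (horizontal), 1 point per array, red for THP -/- and blue for WT, circles for batch 1 and triangles for batch 2. Arrays of both genotypes spread along the same diagonal, from WT replicate 4 at the lower left to THP -/- replicate 2 at the upper right.

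Subunits and their partners were then followed from array to array, in 7 relations chosen after seeing the data, the score relation above included. Slc3a1 and Slc7a13, which form a heterodimer, varied together over the 11 arrays, with Pearson r = 0.806 (permutation p = 0.00258, Benjamini-Hochberg adjusted p = 0.00903) and Spearman rho = 0.827 (permutation p = 0.00297, adjusted p = 0.0104). The r was 0.692 without WT replicate 4 and THP -/- replicate 3, 0.844 within batch 1 and 0.854 with genotype and batch removed. Slc3a1 and its early partner Slc7a9 had r = 0.308 (permutation p = 0.357, adjusted p = 0.606) and rho = 0.302 (permutation p = 0.36), with 0.268 without the same pair of arrays, 0.533 within batch 1 and 0.632 with genotype and batch removed. Cltrn, collectrin, which brings Slc6 carriers to the brush border, had r = -0.164 with Slc6a18 and -0.218 with Slc6a19 (permutation p = 0.634 and 0.52, adjusted p = 0.634 and 0.606). Slc3a2 had r = 0.35 with Slc7a7 and 0.241 with Slc7a8 (permutation p = 0.294 and 0.477, adjusted p = 0.606 for both). The rho of these last 4 pairs lay between -0.314 and 0.310, with permutation p from 0.341 to 0.468. Their r ran from -0.638 to 0.393 without the 2 arrays farthest from the median, and from -0.592 to 0.33 within batch 1. Cltrn with Slc6a19 gave the lowest value of both ranges. With genotype and batch removed the r of the 4 pairs ran from -0.261 to 0.342. Since the relations were chosen with the data seen and arrays were permuted across genotype and batch, these p are descriptions only. The part of segment mix in these relations was not tested.

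The genes whose pattern was most like those of Slc6a20b and Slc7a13 were looked up among 11695 genes above the median signal, with batch means removed. For Slc6a20b they were the nuclear import receptor Ipo5 (Pearson r = 0.946), the tetraspanin Tspan33 (0.944), the calcium entry regulator Saraf (0.927), the nucleotidase Entpd5 (0.920) and the membrane protein Clptm1 (0.915), over 11 arrays. All 5 had positive fitted changes, from 0.48 for Entpd5 to 0.87 for Tspan33. Genotype was not removed before the search, so that direction follows from their likeness to Slc6a20b. For Slc7a13 they were the brush border protease Mep1a (0.970), the translocon subunit Ssr2 (0.959), the lysosomal cholesterol binder Npc2 (0.954), the monocarboxylate carrier Slc5a8 (0.948), which is also in the S3 marker list, and Slc16a4 (0.942). Both sets were picked for their likeness, so no test is given.

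Other amino acid carriers of the plasma membrane were read from a list of 28 genes, all measured. The list is looser than that name, as it also holds the heavy subunit Slc3a2, peptide and creatine carriers, and lysosomal carriers. Of the 28 genes 16 had positive and 12 negative fitted changes, with a median of 0.07, and 0 passed the test. At an unadjusted p under 0.05 there were 4, all positive, beside 6.16% of all probe sets. Slc38a2, a sodium-coupled neutral amino acid carrier induced by amino acid shortage, read 6.40, 6.29, 6.11, 6.90 and 6.29 in THP -/- arrays, against 5.08, 5.35 and 6.18 in WT arrays. The groups overlapped only through THP -/- replicate 3 and the highest WT array, and the log2 change was 0.88 ± 0.23 (SE, limma adjusted p = 0.616), at 0.71 within batch 1 and 1.34 within batch 2. The taurine carrier Slc6a6 was at 0.61 ± 0.19 (SE), Slc6a13, a carrier of GABA and taurine, at 0.71 ± 0.28, and the glutamine carrier Slc38a3 at 0.68 ± 0.29, with limma adjusted p of 0.698, 0.769 and 0.788. The largest negative change of the list was that of Slc43a2, a blood-side carrier of large neutral amino acids, at -0.53 ± 0.34. In 7 of the 28 the mean was below the highest array median in both genotypes.

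**Figure D5:**
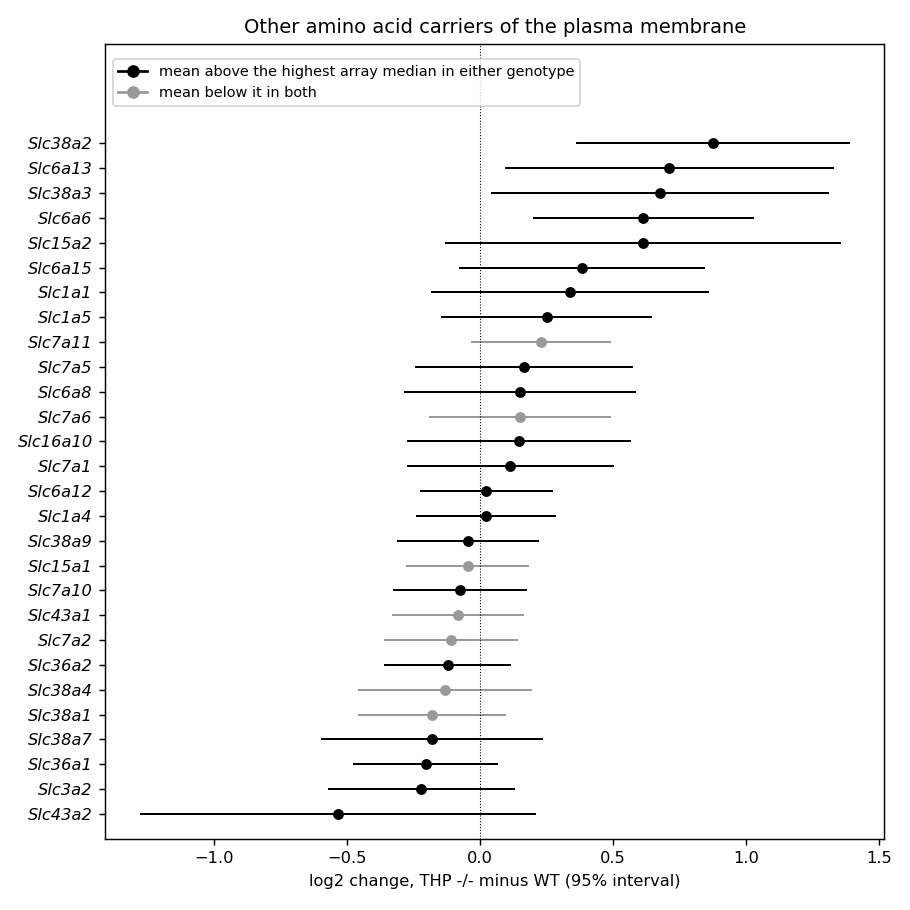
Batch-adjusted log2 change, THP -/- minus WT (horizontal), with its 95% interval for the 28 genes listed as other amino acid carriers, in grey where both genotype means were below the highest array median of 4.01. Slc38a2, Slc6a13, Slc38a3 and Slc6a6 have intervals above 0, and the other 24 include 0.

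Partner proteins of the carriers and brush border peptidases showed no call among the 7 of 9 listed genes that were measured. Cltrn averaged 10.82 ± 0.413 (SD, n = 5) in THP -/- and 10.50 ± 0.220 (SD, n = 6) in WT arrays, a log2 change of 0.29 ± 0.20 (SE). The scaffold Slc9a3r1 was at 0.29 ± 0.13 and the only one with an unadjusted p under 0.05, which 6.16% of all probe sets had. The dipeptidase Dpep1 was at -0.53 ± 0.24 and neprilysin, Mme, at -0.43 ± 0.29.

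Markers of cells outside the proximal tubule were read for the same arrays. Summed thick ascending limb markers (8 of 10 measured), with Umod left out because it is the deleted gene, ran from 9.09 to 11.22 in THP -/- and from 8.67 to 9.52 in WT arrays. All 7 had positive fitted changes, and 0 passed the test. Distal tubule and collecting duct markers (11 of 11) ran from 7.77 to 10.51 in THP -/- and from 8.02 to 9.04 in WT arrays, with THP -/- replicate 4 highest in both lists and the next THP -/- array at 9.95 and 8.87. Thin limb markers (5 of 6 measured) include Aqp1, which proximal tubule cells also express strongly; the other 4 summed to between 5.26 and 5.89 in THP -/- and between 5.38 and 5.89 in WT arrays. Endothelial, glomerular and stromal markers (11 of 12) ran from 7.90 to 8.25 in THP -/- and from 7.89 to 8.05 in WT arrays. Of the leukocyte and erythrocyte list 7 of 10 genes were measured, all of them leukocyte genes. They ran from 6.75 to 7.02 in THP -/- and from 6.79 to 7.13 in WT arrays. None of the listed erythrocyte genes was measured, so red cell content was not read. No marker was at 0 on this scale. The part of these cells in the transporter signals was not tested.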

How the data were processed

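Affymetrix arrays, labelled with the WT Pico kit per the labels' protocols, gave the deposited log2 values of 41345 probe sets in 11 arrays. Per the submitters' processing notes the authors used Partek 6.6 and RMA, which draws array distributions together and can shrink shared changes; filters, batch correction and genome build are not given in the sources used here. Of the probe sets 23521 had 1 gene symbol, 1814 several and 16010 none; symbols were updated through RefSeq, and 118 of 131 listed symbols were measured. Background and detection values were not used; precision is limited by how many arrays there are.

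All probe sets were fitted with limma 3.58.1 in R 4.3.3 (genotype and batch as fixed terms, 8 residual degrees of freedom, two-sided, no filter), with Benjamini-Hochberg adjustment over all of them and a threshold of 0.05. Tested on simulated data of this comparison over 41345 probe sets, it recovered 65 of 100 changes of 1 and 90 of 100 of 2, with 12 false calls. The simulated noise was normal and independent between probe sets and arrays, and the changes put in ease the adjustment, so these rates need not hold here. In the real arrays Slc6a20b, at a log2 change of 1.11, had a limma adjusted p of 0.271. A lack of calls is therefore no sign of no change. Correlations used two-sided permutation tests with 100000 resamples, which moved arrays across genotype and batch. The members, lists and tests were chosen with earlier results of these data known. Named were the 10 members, up to 4 genes of smallest p per list, and the 5 genes most like Slc6a20b and Slc7a13; Slc43a2 was named after its value was seen. Lists of sex chromosome and sex-biased kidney genes were read too; of the latter Cyp4a12a, Slco1a1 and Kap were measured, at log2 changes of 0.30, 0.28 and 0.02. Alternatives were the batch term, batches alone, normalization, filters, priors, weights, the replicate block and each array left out. Exact permutation of genotype within batches (168 arrangements) gave p from 0.0774 to 0.649 for the 9 members other than Slc6a20b.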

Additional observations from a re-analysis of the deposited data

Results flagged for a closer look

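A single array stood far from the rest of its group in 9 of 110 group-and-gene checks, where chance flags about 1 in 20. Among the transporters this was Slc6a18 in WT replicate 4, at 8.91 against 9.69 to 9.97 in the other WT arrays. In THP -/- replicate 4, Slc12a1 was at 10.05 against 6.78 to 7.35 in the other THP -/- arrays, and Cldn4 at 4.55 against 3.51 to 3.71. In WT replicate 5, G6pc was at 6.98 against 8.33 to 9.12, Slco1a1 at 5.50 against 7.09 to 7.88, and Slc14a2 at 3.94 against 3.41 to 3.59. WT replicate 3 was apart for Slc9a3r1, at 7.69 against 7.29 to 7.41, and for Pecam1, at 4.65 against 5.04 to 5.21. WT replicate 1 was apart for Scnn1b, at 4.0 against 4.39 to 4.59.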

How the results depend on the processing

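No transporter gene passed the adjusted threshold under any alternative run. The change of Slc6a20b ran from 1.05 to 1.24 when each array was left out (limma adjusted p from 0.174 to 0.58) and from 0.92 to 1.24 under the other settings. Within batch 2, which compares 2 arrays with 1, Slc6a18 was at -0.065, Slc6a19 at 0.20 and Slc7a12 at -0.31, opposite to their signs over all arrays. With the segment marker score as a covariate, Slc6a18 was at -0.053, Slc7a12 at -0.17, Slc3a1 at -0.13 and the S3-type minus S1-type score at -0.13; that covariate takes up signal that moves with the score. Slc7a7 ran from -0.19 to 0.05 when each array was left out, positive without THP -/- replicate 2. The count of probe sets past the threshold was 3 in batch 1 alone, and from 0 to 11 when each array was left out: 11 without THP -/- replicate 5, 3 without WT replicate 6, 2 without THP -/- replicate 3 and 1 without WT replicate 1; the cause was not tested. The S3-type minus S1-type score ran from 0.24 (without THP -/- replicate 2) to 0.63 (without THP -/- replicate 1). With the replicate number as a block the count was 0 and Slc6a20b was at 0.99 (limma adjusted p = 0.998); same-numbered arrays did not deviate together (r from -0.18 to 0.01, and from -0.12 to 0.096 with batch also removed), so the numbers are not taken to pair them. The mean over several probe sets could not be tried because each gene had 1.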
